A study of Mus musculus with 6 samples.

Results

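The insulin and insulin-like growth factor (IGF) loci described here are 10 genes chosen by name, grouped as receptors (Insr and Igf1r), receptor substrates (Irs1 and Irs2), a ligand (Igf1) and binding proteins (Igfbp2, Igfbp3, Igfbp4, Igfbp5 and Igfbp7), out of 53843 annotated genes. A chromatin accessibility site was assigned to a gene when its centre lay in the gene body or within 20 kb of it. This gave 178 windows out of 179255 across the genome, each reaching 250 bp to either side of a summit. Accessibility was measured by ATAC-seq, in which the transposase Tn5 inserts sequencing adapters into open chromatin, in 3 wild type (WT) libraries and 3 libraries of double knockout (DKO) cells, which lack Hmgn1 and Hmgn2 (Hmgn1-/-, Hmgn2-/-), a pair of nucleosome-binding proteins. The paper names C57BL/6 for the WT mice and a B6.Cg line for the DKO mice, and the mice were 8 to 12 weeks old. The cells were preadipocytes of inguinal white fat, plated on collagen and taken before differentiation (day 0), with 50000 cells per library. Nothing in the labels says whether the 3 libraries of a genotype came from separate animals or cultures, so the p-values below measure only the spread between these libraries, which may be technical. The methods name no tissue-specific deletion, and the comparison is of cells isolated from knockout and wild type mice.

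Insulin and IGF-1 bind receptor tyrosine kinases of one family, the insulin receptor and the IGF-1 receptor, which phosphorylate the adaptor proteins IRS1 and IRS2. These recruit phosphoinositide 3-kinase, and the kinase AKT then drives glucose uptake, protein synthesis and the exclusion of FOXO factors from the nucleus. Preadipocytes depend mainly on the IGF-1 receptor, and the insulin receptor becomes prominent as they mature into fat cells. IGF binding proteins are secreted and hold IGFs in the extracellular space, where they can limit or prolong their action.

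The sequences of 9 sites that carry the results below are shown first. They are the centre of each window with 100 bases to either side, outside annotated exons, read from the + strand of mm10 (GRCm38). Capitals mark matches to the motifs searched: AP-1 (TGACTCA or TGAGTCA), CEBP (TTGCNNAA), TEAD (GGAATG), SP/KLF (GGGCGGGG), FOXO (GTAAACA), ETS (CCGGAAG) and the longer EBF, CTCF, NFI and glucocorticoid receptor motifs, on either strand. Motifs and GC content were read in this central stretch of each window and not in its outer parts. A match is a description of the letters and not a measured binding site. The first 4 sites had large or well separated values in the receptors and Irs1, the Irs2 site is the highest start-site window of the 10 genes by the mean over the 6 libraries, the Igf1 site is the strongest site of the ligand, and the last 3 are binding protein sites picked with their values known: the most negative change of that group (Igfbp2), the strongest Igfbp3 window away from a start site, and the smallest p at Igfbp7.
Insr intron, 28319 bp into the gene, chr8:3251198-3251398: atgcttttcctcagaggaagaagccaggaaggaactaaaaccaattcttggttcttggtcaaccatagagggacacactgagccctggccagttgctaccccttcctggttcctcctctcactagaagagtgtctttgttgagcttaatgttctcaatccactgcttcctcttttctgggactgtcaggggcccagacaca
Insr intron, 63926 bp into the gene, chr8:3215591-3215791: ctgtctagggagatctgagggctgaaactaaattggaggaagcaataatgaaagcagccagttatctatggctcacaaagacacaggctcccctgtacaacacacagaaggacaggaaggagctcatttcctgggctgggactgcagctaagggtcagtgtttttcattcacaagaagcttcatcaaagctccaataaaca
Igf1r intron, 228538 bp into the gene, chr7:68181265-68181465: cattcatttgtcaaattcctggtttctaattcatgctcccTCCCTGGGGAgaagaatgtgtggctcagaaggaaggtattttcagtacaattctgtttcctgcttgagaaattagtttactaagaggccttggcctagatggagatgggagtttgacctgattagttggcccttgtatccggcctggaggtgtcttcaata
Irs1 intron, 30956 bp into the gene, chr1:82260360-82260560: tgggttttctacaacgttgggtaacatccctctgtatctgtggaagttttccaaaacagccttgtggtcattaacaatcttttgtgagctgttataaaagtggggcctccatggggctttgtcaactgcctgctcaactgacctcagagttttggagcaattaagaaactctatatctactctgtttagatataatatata
Irs2 start-site window, chr8:11008933-11009133: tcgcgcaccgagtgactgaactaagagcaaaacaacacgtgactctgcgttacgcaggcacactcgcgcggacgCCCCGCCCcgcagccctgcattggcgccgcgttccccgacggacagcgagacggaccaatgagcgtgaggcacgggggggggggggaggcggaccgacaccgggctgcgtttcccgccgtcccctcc
Igf1 intron, 21952 bp into the gene, chr10:87880117-87880317: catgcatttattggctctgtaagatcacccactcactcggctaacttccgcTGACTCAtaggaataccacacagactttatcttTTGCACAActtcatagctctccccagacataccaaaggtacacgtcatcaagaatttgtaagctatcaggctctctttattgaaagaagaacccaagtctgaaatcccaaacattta
Igfbp2 intron, also within 20 kb of Igfbp5, chr1:72839953-72840153: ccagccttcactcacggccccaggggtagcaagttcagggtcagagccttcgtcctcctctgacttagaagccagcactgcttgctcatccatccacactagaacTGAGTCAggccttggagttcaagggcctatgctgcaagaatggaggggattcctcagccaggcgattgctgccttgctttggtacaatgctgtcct
Igfbp3 intron, chr11:7210385-7210585: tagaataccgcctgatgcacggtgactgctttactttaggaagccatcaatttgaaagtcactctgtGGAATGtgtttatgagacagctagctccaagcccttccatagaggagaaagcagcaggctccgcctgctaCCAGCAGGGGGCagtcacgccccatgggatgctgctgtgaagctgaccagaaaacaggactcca
Igfbp7 intron, 49351 bp into the gene, chr5:77358590-77358790: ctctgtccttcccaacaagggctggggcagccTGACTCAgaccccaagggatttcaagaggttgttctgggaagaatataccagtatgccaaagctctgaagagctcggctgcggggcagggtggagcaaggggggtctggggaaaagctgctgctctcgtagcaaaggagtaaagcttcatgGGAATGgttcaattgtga

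Each value is the deposited fold enrichment of a summit, which divides the pileup of Tn5 insertions at the summit by the background around it within one library. Each list ended at close to 300000 summits, between 299433 and 299620, so a site that is not listed was under the limit of that list and was not shown to be closed. The 10 loci held 277, 285 and 274 summits in the WT libraries, in replicate order here and below, against 270, 287 and 300 in the DKO libraries. The most frequent background value, the only measure of depth in the lists, was 2.05 insertions in DKO replicate 3 and between 2.41 and 2.58 in the others. In bulk cells, fewer cells with an open site and less opening per cell cannot be told apart.

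The labels were checked at start sites. The Hmgn2 start-site window was listed in the 3 WT libraries and in 0 DKO libraries, whereas that of Hmgn1 was listed in all 6, and the labels do not say which part of Hmgn1 is missing. Start-site windows were listed in all 6 libraries for 6 of 8 preadipocyte or fibroblast markers (with a mean fold enrichment of up to 9.14 at Pdgfrb, and of 3.85 at Dlk1, which was listed in 5 libraries), and for 0 of 4 mature adipocyte markers, of which none was listed in any library. Ly6a, a preadipocyte marker, was not listed at all. Of 4 endothelial markers, 3 were listed in all 6 libraries, with a mean of 13.2 at Pecam1 and 15.6 at Tek, and Kdr the third. Deposited values were lower in DKO without overlap at Pecam1 (12.2 to 17.2 in WT and 10.3 to 11.8 in DKO), at Tek (15.4 to 18.2 and 13.5 to 15.3) and at the preadipocyte marker Pdgfrb (9.55 to 10.9 and 7.24 to 9.22). Deposited values are not scaled between libraries. Without scaling, DKO was lower without overlap in 12.5% of all windows and higher in 3.33%. The endothelial gene Cdh5 was listed in the DKO libraries alone (3.91, 7.09 and 4.26), as was the immune gene Itgam (4.19, 5.95 and 3.28). Of the other immune markers, Adgre1 was listed in 2 DKO libraries and 0 WT libraries, Ptprc in none, and Cd68 in all 6, higher in DKO without overlap (4.79 to 5.73 in WT and 5.78 to 6.26 in DKO). The epithelial gene Cdh1 was listed in all 6 libraries (mean 4.45), and Epcam and Krt18 in none. Of the brown adipocyte genes, Cidea was listed in 4 libraries and Ucp1 in none. Whether cells of these other types contribute to the results below was not tested.

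Across the 178 windows, chromatin accessibility at the insulin and IGF loci showed no change that passed the test. With a threshold of 0.05 on the adjusted p, limma called 0 windows as lower and 0 as higher in DKO, and over all windows it called 0.0340% lower and 0.0229% higher. At an unadjusted p under 0.05, 16 windows (8.99%) passed, 7 lower and 9 higher, against 11.8% of all windows. The smallest adjusted p was 0.16. Fitted without a mean-variance trend, the test called 2 member windows, both higher, and in that fit it called 2048 windows higher across the genome, against 41 in the fit used here.

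The values of the 3 WT and 3 DKO libraries, after quantile normalization, were also checked for overlap. DKO was lower than WT without overlap in 11 windows (6.18%, against 7.67% of all windows) and higher in 22 (12.4%, against 8.76%). Leaving out any 1 library, which by construction leaves fewer values to overlap, gave 17 to 22 lower windows (9.55% to 12.4%, against 11.3% to 13.7% of all windows) and 26 to 36 higher (14.6% to 20.2%, against 12.2% to 14.6%), the 36 without WT replicate 1 (12.5% of all windows there). Without scaling between libraries the order turned to 20 lower (11.2%, against 12.5% of all windows) and 8 higher (4.49%, against 3.33%), and the median change of all windows was then -0.14 on the log2 scale. The median change of the member windows was 0.058 on the log2 scale, against 0.01 over all windows, and 103 of 178 (57.9%) were above 0, against 51.4%. That median was 0.097 without WT replicate 1 and 0.016 without WT replicate 3. Without scaling it was -0.089. Windows listed in 3 libraries of 1 genotype and 0 of the other numbered 2 for WT (1.12%, against 1.23%) and 2 for DKO (1.12%, against 1.14%). Leaving out 1 library raised the first count to 5 without WT replicate 2, 6 without DKO replicate 2 and 5 without DKO replicate 3, and the second to 4 without WT replicate 3 and 7 without DKO replicate 3, against up to 2.45% and up to 2.21% of all windows when 1 library was left out (the 6 being 3.37% and the 7 being 3.93% of the members).

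**Figure D1:**
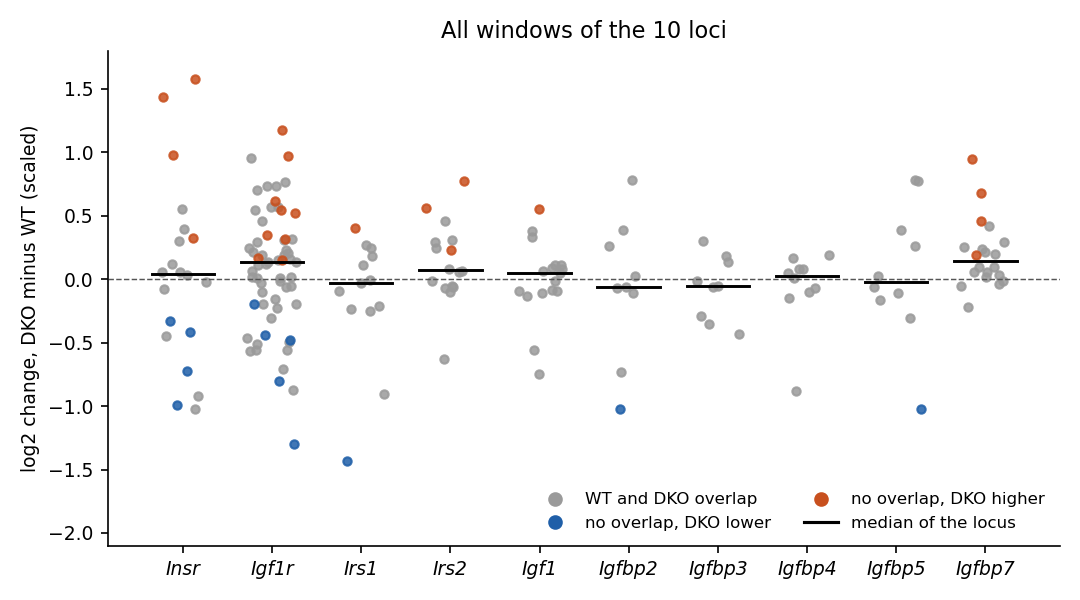
Log2 change in fold enrichment (DKO minus WT, quantile-normalized) of each window at each of the 10 loci, 1 point per window, with the median of each locus as a black line. Blue and orange points are windows whose 3 WT and 3 DKO values did not overlap (11 lower and 22 higher, the window shared by Igfbp2 and Igfbp5 being drawn in both columns). Points lie on both sides of 0 at every gene, and Insr and Igf1r hold most of the coloured points.

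The loci differed in how densely they were covered with accessible sites. The genome average was 6.81 windows per 100 kb, and the loci held between 10.1 (Insr) and 25.1 (Irs2). Igf1r, a long gene, held 61 windows, 31 of them listed in all 6 libraries. Igfbp2 and Igfbp5 are neighbours and share 7 windows, so their values are not independent. Of all 178 windows, 105 (59.0%) were listed in the 6 libraries, against 58.0% of all windows, and the median of the mean fold enrichment was 4.05, against 4.70. In listed summits per locus, the difference, DKO minus WT, ran from -6.33 at Igf1r to 5.00 at Insr, with exact two-sided permutation p-values from 0.3 to 1.0, adjusted from 0.75 to 1.0 over the 10 genes. With 3 libraries against 3, this test cannot go below 0.1. Within the best 100000 summits of each list the differences were 0.667 at Igf1r, -0.333 at Insr and 1.67 at Irs1, which was -2.00 over the full lists. Irs1 was the only gene of the 10 whose counts did not overlap there, with 7, 6 and 7 in WT and 9, 8 and 8 in DKO. These counts were not tested, and a full separation of 3 against 3 is where the permutation test reaches 0.1.

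In order of mean fold enrichment, the start-site windows ran Irs2 (10.9), Igfbp7 (10.5), Irs1 (9.54), Insr (9.16), Igfbp4 (8.13), Igfbp3 (5.08), Igf1r (4.31), Igf1 (3.11) and Igfbp2 (listed in 2 libraries), each gene being given by its highest window within 1 kb of any of its annotated starts. For Igfbp4 that is an internal start 6054 bp into the gene, and the window nearest its RefSeq start, 314 bp away, was listed in WT replicate 2 (3.32) and DKO replicate 2 (2.81) alone. Upstream of that RefSeq start, a window 751 bp away was listed in all 6 libraries (mean 4.10). Another, 1275 bp away and so outside the 1 kb limit, was also listed in all 6. Its mean of 11.1 was above that of Irs2, so the order depends on that limit. Neighbours in this order were not always apart. Irs2 lay above Igfbp7 in 5 of 6 libraries, but by the DKO mean Igfbp7 (10.9) lay above Irs2 (10.5). Igfbp7 lay above Irs1 in 2 of 6 libraries and Irs1 above Insr in 3, while Insr lay above Igfbp4, and Igfbp4 above Igfbp3, in all 6. By p within each list, the Irs2 window had a median rank in the top 7.87%, Irs1 10.1%, Igfbp7 16.2%, Insr 16.6% and Igf1r 40.3%, while the Igf1 window lay at 87.5%. Ranked by fold enrichment instead, the medians were 13.8% for Irs2, 16.0% for Igfbp7, 18.0% for Insr, 18.2% for Irs1 and 59.9% for Igf1r, which put Irs1 behind Igfbp7 and Insr. Igfbp5 had no window within 1 kb of its start site, and the nearest was 1460 bp from the RefSeq start. No start-site window of the 9 genes passed the test between genotypes.

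**Figure D2:**
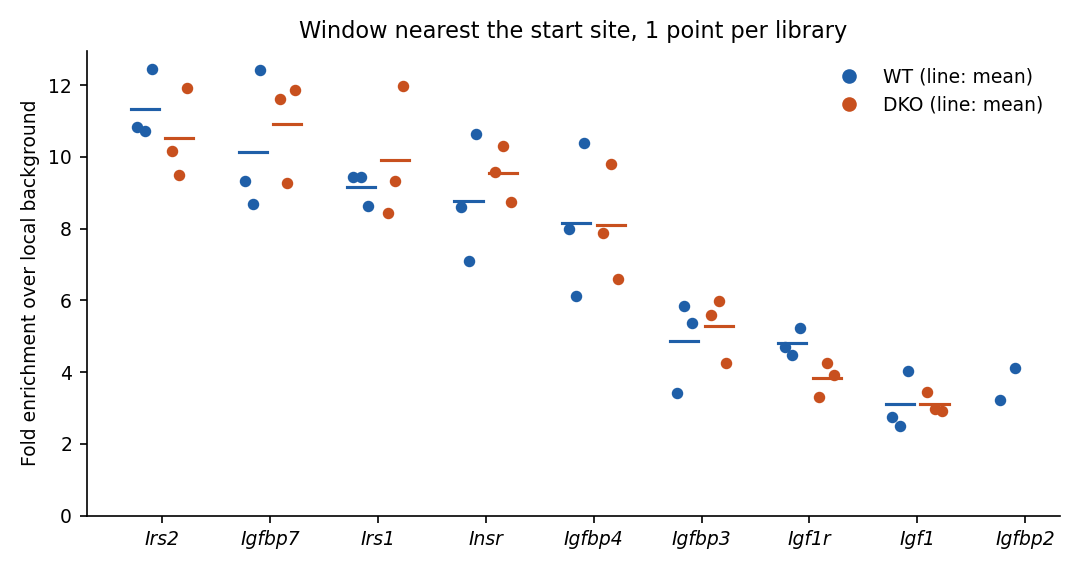
Fold enrichment over local background (linear axis) of the start-site window of each gene, 1 point per library in WT (blue) and DKO (orange), with group means as lines where all 3 libraries were listed. WT and DKO points overlap at every gene with 6 listed libraries other than Igf1r, where the WT points lie between 4.47 and 5.22 and the DKO points between 3.31 and 4.24.

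Of the receptors, the insulin receptor gene Insr (chr8:3122061-3279617, - strand) held 20 windows, most of them intronic. Its start-site window, chr8:3279381-3279881, had fold enrichments of 8.61, 7.09 and 10.6 in WT and 9.58, 10.3 and 8.76 in DKO. These ranges overlap, but the quantile-normalized values do not (2.95 to 3.09 in WT and 3.32 to 3.38 in DKO, log2). The change was 0.33 ± 0.12 on the log2 scale (SE, n = 3 per genotype, 95% interval 0.05 to 0.60), with an adjusted limma p of 0.335. Without scaling it was 0.139 (adjusted p = 0.809, the highest of the alternatives, which began at 0.168). This window held the FOXO motif, which 4 of the 178 windows (2.25%) and 2.5% of all windows held. The strongest Insr window, in an intron 58461 bp into the gene, did not separate the genotypes, at 18.3, 16.2 and 20.1 in WT and 17.0, 16.6 and 18.1 in DKO, with a change of 0.058 (95% interval -0.16 to 0.28).

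The largest positive changes of any member window lay in Insr introns. At chr8:3251048-3251548, a summit was listed in WT replicate 3 alone (4.13) and in the 3 DKO libraries at 6.99, 5.47 and 4.75. The next, chr8:3215441-3215941, was listed in 0 WT libraries and in the DKO libraries at 3.91, 4.77 and 3.30. A library without a summit was entered at the end of the normalized lists, so the fitted changes of 1.58 ± 0.39 and 1.44 ± 0.36 (adjusted p = 0.161 for both) depend on that limit and are no fold changes of accessibility. The second was called (adjusted p = 0.0132) in the fit without a trend, and its adjusted p ran up to 0.339 over all alternatives. The pileups at it were 13, 16 and 10 insertions in the DKO libraries. Other Insr windows went the other way, such as the intron window chr8:3209235-3209735, with 11.6, 9.63 and 13.7 in WT and 8.996, 8.67 and 6.85 in DKO (change -0.33 ± 0.13, adjusted p = 0.344, and -0.507 without scaling). At Insr, DKO was lower without overlap in 4 of 20 windows and higher in 4, against 7.67% and 8.76% of all windows.

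**Figure D3:**
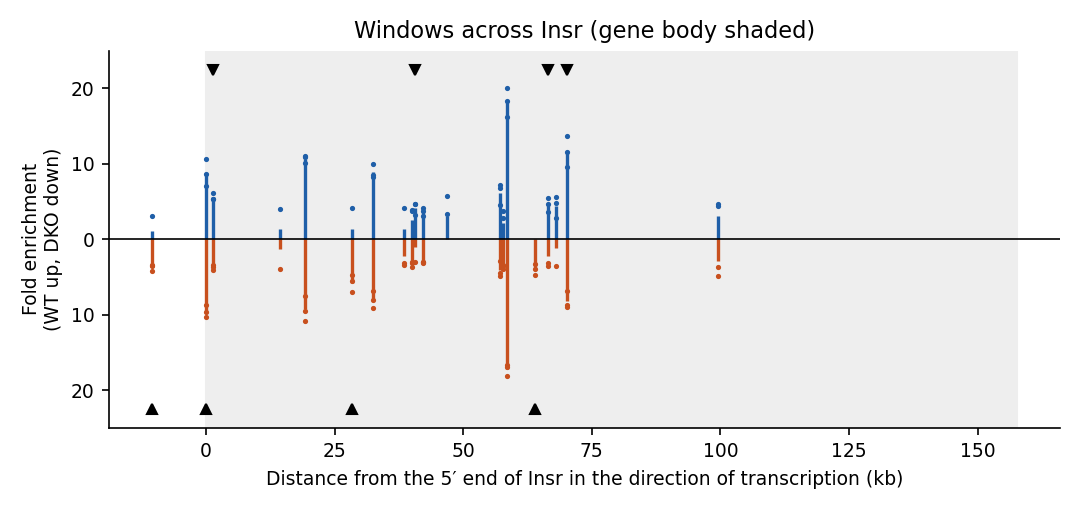
Fold enrichment at the Insr windows against distance from the 5′ end of the gene in kb, with WT drawn upward and DKO downward, bars as means with a library that was not listed counted as 0, and dots as libraries. Black triangles at the top mark windows where DKO was lower without overlap after quantile normalization, and those at the bottom where it was higher, 4 of each, on a shaded gene body.

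The IGF-1 receptor gene Igf1r (chr7:67952827-68233668, + strand) held 61 windows, of which 5 were lower (8.2%, against 7.67% of all windows) and 9 higher (14.8%, against 8.76%) in DKO without overlap. At the intron window chr7:68181115-68181615, the values were 10.1, 9.59 and 12.6 in WT and 6.57, 7.53 and 6.65 in DKO, so all WT libraries lay above all DKO libraries. The change was -0.44 ± 0.13 on the log2 scale (95% interval -0.73 to -0.15) and did not pass the test (adjusted p = 0.20, with a range of 0.188 to 0.386 over the alternatives). It held the EBF motif, found in 2 of 178 windows (1.12%) and 0.755% of all windows.

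Other Igf1r windows were higher in DKO after normalization, without passing the test. The intron window chr7:68148480-68148980 had 8.42, 4.97 and 6.72 in WT and 8.53, 9.04 and 7.33 in DKO (change 0.52 ± 0.18, adjusted p = 0.284, and 0.336 without scaling). Its deposited values overlap, since WT replicate 1 lay above DKO replicate 3, and the normalized ones do not. At chr7:68030803-68031303, an intron window with the AP-1 motif, WT replicate 1 was not listed, WT replicates 2 and 3 had 3.41 and 4.57, and DKO had 4.58, 5.07 and 5.65. Both WT-only windows of the 10 loci were Igf1r introns. One, chr7:67985079-67985579, had 4.15, 4.80 and 3.38 in WT, and the other, chr7:67986875-67987375, had 2.90, 2.69 and 3.91. The strongest Igf1r window, chr7:68021650-68022150, did not separate the genotypes, with 18.9, 14.1 and 18.2 in WT and 18.8, 17.3 and 17.4 in DKO (change 0.20, 95% interval -0.029 to 0.44, and 0.072 without scaling). At the start site, 84 bp from the RefSeq start, WT had 4.71, 4.47 and 5.22 and DKO 3.31, 4.24 and 3.91. These values do not overlap, but the quantile-normalized ones do, and the change was -0.20 ± 0.26 (95% interval -0.76 to 0.37), with -0.263 to -0.085 when 1 library was left out and -0.333 without scaling.

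**Figure D4:**
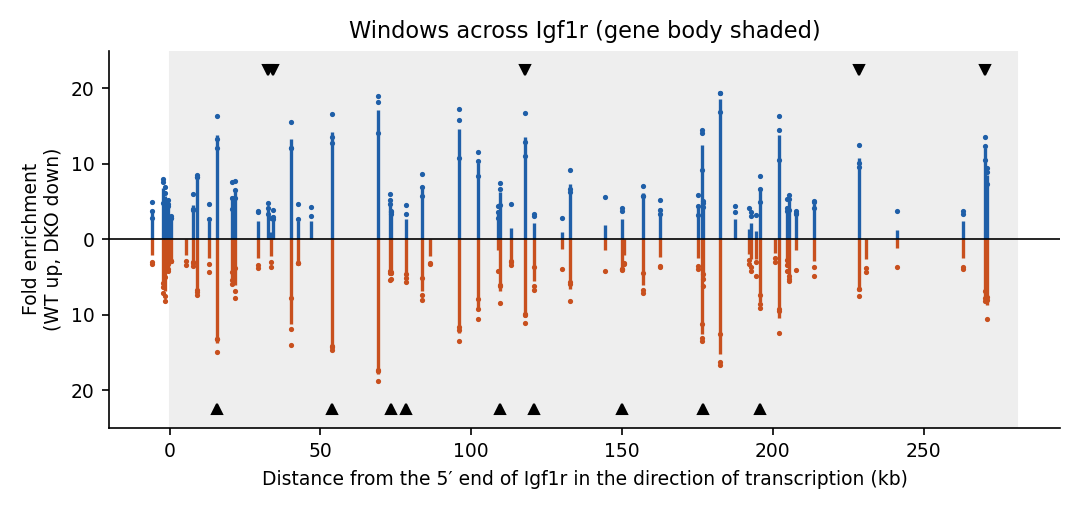
Fold enrichment at the 61 Igf1r windows against distance from the 5′ end of the gene in kb, drawn as for Insr (WT up, DKO down, bars as means with libraries not listed counted as 0, dots as libraries). Triangles mark the 5 windows where DKO was lower (top) and the 9 where it was higher (bottom) without overlap.

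For the substrates, the start-site window of Irs1 (chr1:82233101-82291416, - strand), chr1:82291347-82291847, was at 9.43, 9.44 and 8.63 in WT and 8.43, 9.32 and 11.97 in DKO, a change of 0.27 (95% interval -0.17 to 0.71). It was 0.097 without scaling, 0.084 without DKO replicate 3, 0.111 without WT replicate 3 and 0.406 without WT replicate 2. A second window, 558 bp inside the transcript in the 5′ untranslated region, was at 4.67, 4.63 and 4.39 in WT and 5.21, 5.73 and 5.14 in DKO, so these groups did not overlap (change 0.41 ± 0.23, adjusted p = 0.46). Without scaling the change at this second window was 0.23. The strongest Irs1 window away from the start, in an intron 8019 bp into the gene, was at 6.33, 8.26 and 7.34 in WT and 7.12, 7.91 and 7.79 in DKO. The Irs1 intron window chr1:82260210-82260710 was the most negative of all members. It was listed in WT at 6.13, 4.84 and 7.63, and in DKO in replicate 2 alone (3.97), which gave a change of -1.43 ± 0.41 with the other libraries entered at the end of the list (adjusted p = 0.189). The Irs2 gene (chr8:10984681-11008458, - strand) had the highest start-site window by the mean over the 6 libraries, at 10.8, 10.7 and 12.5 in WT and 10.2, 9.50 and 11.9 in DKO, a change of 0.065 (95% interval -0.26 to 0.39). The strongest other window near Irs2, in an exon of the non-coding gene Gm44956, had 12.9, 10.03 and 15.3 in WT and 11.1, 13.0 and 10.8 in DKO. Of the Irs2 introns, chr8:10997073-10997573, with the AP-1 motif, had 2.84, 2.96 and 3.78 in WT and 5.74, 4.12 and 3.41 in DKO (change 0.77 ± 0.35, adjusted p = 0.432, and 0.45 without scaling). Another, chr8:11002564-11003064, with the FOXO motif, had 2.67, 2.67 and 2.87 in WT and 2.80, 3.29 and 2.71 in DKO (change 0.56, 95% interval -0.26 to 1.38, and 0.096 without scaling and 0.124 among windows listed in all 6 libraries). Both were separated after quantile normalization, but their deposited values overlap.

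The ligand gene Igf1 (chr10:87858265-87937042, + strand) held 17 windows, 11 of them listed in all 6 libraries. Its start-site window was weak, at 2.76, 2.503 and 4.04 in WT and 3.45, 2.98 and 2.92 in DKO (change 0.38, 95% interval -0.44 to 1.20). The change was 0.035 without scaling, 0.191 without WT replicate 1 and 0.654 without WT replicate 3. A further start-site window, 25 bp from the RefSeq start, was at 2.81, 2.70 and 3.10 in WT and 2.84, 3.41 and 2.70 in DKO. The strongest window, chr10:87879967-87880467, lay in an intron and held the AP-1 and CEBP motifs. It had 16.2, 16.2 and 14.3 in WT and 12.4, 12.7 and 13.7 in DKO, so all WT values were above all DKO values before normalization. After normalization the groups overlapped, with a change of -0.11 (95% interval -0.45 to 0.24). This change was -0.267 without scaling and ran from -0.284 to 0.03 when 1 library was left out. No Igf1 window had an unadjusted p under 0.05.

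Among the binding proteins, Igfbp7 (chr5:77349240-77408041, - strand), whose product binds IGFs weakly, had 4 of 20 windows without overlap, all higher in DKO (against 8.76% of all windows that were higher). The intron window chr5:77358440-77358940, with the AP-1 and TEAD motifs, had 5.99, 5.49 and 7.76 in WT and 7.87, 7.93 and 7.21 in DKO, a change of 0.46 ± 0.15 (95% interval 0.13 to 0.80, adjusted p = 0.246, and 0.273 without scaling). Its deposited values overlap, and the normalized ones do not. A second intron window, chr5:77366990-77367490, was listed in 0 WT libraries and in DKO at 2.82, 2.89 and 2.67 (adjusted p = 0.35, and 0.0198 in the fit without a trend, with a range of 0.0198 to 0.641 over the alternatives). Its start-site window was at 9.32, 8.67 and 12.4 in WT and 11.6, 9.27 and 11.9 in DKO (change 0.29, 95% interval -0.039 to 0.62, with 0.116 without scaling and 0.182 to 0.438 when 1 library was left out). The strongest intron window was at 12.4, 12.8 and 13.2 in WT and 13.2, 13.7 and 12.3 in DKO.

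Igfbp2 (chr1:72824503-72852474, + strand) and Igfbp5 (chr1:72857932-72874884, - strand), which lie side by side, shared the most negative window of the group. In the Igfbp2 intron at chr1:72839803-72840303, which holds the AP-1 motif, WT had 4.96, 3.42 and 4.99, and in DKO only replicate 3 was listed, at 3.28 (change -1.02 ± 0.42 with the other libraries at the end of the list, adjusted p = 0.383). Another shared window, chr1:72854808-72855308, varied within WT (9.64, 3.98 and 11.4) more than between genotypes (5.86, 7.09 and 7.54 in DKO). Both start-site windows of Igfbp2 were weak. One, 322 bp upstream, was listed in WT replicates 1 and 3 (3.21 and 4.11), and the other, 320 bp inside the gene, in WT replicate 2 (3.42) and DKO replicate 2 (3.12). The strongest Igfbp5 window, 3101 bp upstream of its start, had 12.1, 8.45 and 12.2 in WT and 9.71, 7.76 and 5.90 in DKO (change -0.31 ± 0.17, adjusted p = 0.46), and -0.495 without scaling, -0.171 without DKO replicate 3 and -0.467 without DKO replicate 1.

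Igfbp3 (chr11:7206086-7213923, - strand), which encodes the main IGF carrier of plasma, and Igfbp4 (chr11:99041244-99054392, + strand), an inhibitor of IGF action, had 0 of 9 and 0 of 10 windows without overlap, counts too small to set against the 7.67% and 8.76% of all windows. The Igfbp3 start-site window, 967 bp from the start, was at 3.41, 5.85 and 5.37 in WT and 5.60, 5.97 and 4.26 in DKO (change 0.30, 95% interval -0.32 to 0.92). This change was 0.067 without WT replicate 1, 0.557 without WT replicate 2 and 0.137 without scaling. Its intron window with the TEAD and CTCF motifs had 7.77, 5.77 and 8.83 in WT and 6.30, 7.96 and 7.79 in DKO. The highest Igfbp4 start-site window, at an internal start, had 7.99, 6.12 and 10.4 in WT and 7.87, 9.81 and 6.60 in DKO. The strongest window of all 10 loci, chr11:99024176-99024676 within 20 kb of Igfbp4, is the start site of the neighbouring gene Top2a, which encodes a topoisomerase of dividing cells. It had 27.2, 25.1 and 31.2 in WT and 27.3, 22.2 and 21.4 in DKO (change -0.145, 95% interval -0.36 to 0.074). The change was -0.238 without scaling, -0.236 without DKO replicate 1 and -0.087 without DKO replicate 2.

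By role, the receptors held 81 windows with a median log2 change of 0.11 and 12 with an unadjusted p under 0.05 (14.8%, against 11.8% of all windows). These 12 were 6 of 20 windows at Insr (30.0%) and 6 of 61 at Igf1r (9.84%). The substrates held 29 windows with a median of 0.055 and 1 such window (3.45%), the ligand 17 with 0.047 and 0, and the binding proteins 51 with 0.047 and 3 (5.88%). Without scaling the medians were -0.057 for the receptors, -0.11 for the substrates, -0.101 for the ligand and -0.093 for the binding proteins, against -0.135 over all windows. The 19 windows within 1 kb of a start site of their own gene had a median of 0.245, with 15 above 0, and the 159 others had 0.034, with 88 above 0. Over all windows within 1 kb of any start site the median was 0.085 and 63.9% were above 0. Without scaling, the 19 had a median of -0.008 and all start-site windows had -0.066. Whether these sets differ from each other was not tested.

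In the central stretches of the 178 windows (100 bases to either side of the centre), the AP-1 motif was found in 26 (14.6%), against 23.6% of all windows. The CEBP motif was found in 23 (12.9%, against 12%) and the TEAD motif in 29 (16.3%, against 16.3%). The SP/KLF motif was in 5 (2.81%, against 3.47%), the CTCF motif in 3 (1.69%, against 3.07%) and the ETS motif in 3 (1.69%, against 2.13%). The glucocorticoid receptor and NFI motifs were in 0 (against 0.399% and 0.0363%). The median GC content of these stretches was 48.3%, against 47.8%.

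Start-site windows of 48 other genes of the pathway, from receptors to signalling kinases and IGF carriers, were compared in the same fit. A window was found for 45 of them and none for Igf2, Igfbp1 and Pappa2. Of these, limma called 0 in either direction, 3 had an unadjusted p under 0.05 (6.67%, against 10.8% of all start-site windows, with 2 of the 3 lower in DKO), and the list had a median change of 0.086 and 31 of 45 above 0 (68.9%, against 63.9% of all start-site windows, whose median was 0.085). Without scaling, the pathway median was -0.062 and that of all start-site windows -0.066. The smallest unadjusted limma p of the 45 was at Tsc1 (0.00182, adjusted p = 0.158). It had 18.1, 16.2 and 21.4 in WT and 13.6, 13.0 and 11.6 in DKO (change -0.39 ± 0.09). The highest change was at Pik3r1, which encodes the regulatory subunit of phosphoinositide 3-kinase, with 7.85, 9.60 and 8.21 in WT and 12.4, 11.8 and 12.7 in DKO (change 0.70 ± 0.18, adjusted p = 0.161). Next was Enpp1, an inhibitor of insulin receptor signalling (0.68, 95% interval -0.33 to 1.70), with WT replicate 1 not listed. The lowest were Igfals, the acid-labile subunit that carries IGFs in plasma (-1.21 ± 0.42, adjusted p = 0.283), with DKO replicates 2 and 3 not listed, and Igf2r, whose product takes up and degrades IGF-2, with 6.17, 5.23 and 5.93 in WT and 3.85, 4.16 and 2.92 in DKO (-0.545 ± 0.25, adjusted p = 0.428).

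**Figure D5:**
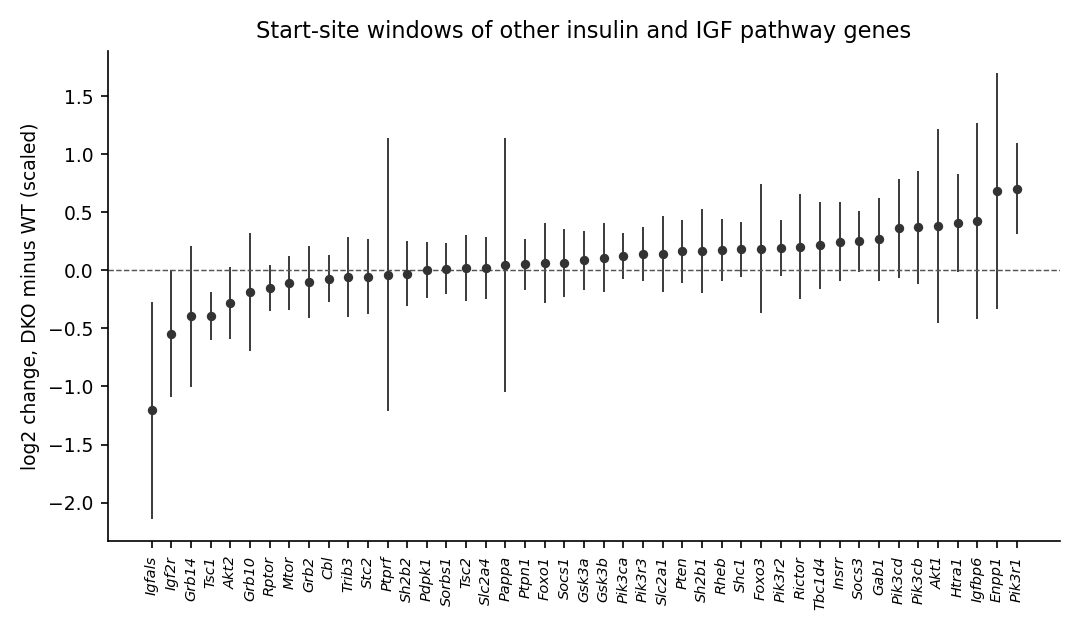
Log2 change in fold enrichment (DKO minus WT, quantile-normalized) with its 95% interval from limma at the start-site window of 45 other insulin and IGF pathway genes, in order of the change. The intervals of most genes include 0, and Pik3r1 (0.70) and Igfals (-1.21) stand at the ends.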

How the data were processed

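ATAC-seq peak lists, 1 for each of 6 libraries, were grouped by sample title. Per the study's methods, the authors aligned reads with Bowtie2. The submitters' processing notes name bcl2fastq 2.17, cutadapt 1.18, Bowtie2 2.3.4.3, MACS2 without a version, and the build mm10. The methods print NCBI37 beside mm10, and all peaks lie within GRCm38 chromosomes. Duplicate and mitochondrial reads were removed, and MACS2 called peaks in each library separately. The names of the lists give Tn5 adjustment and a p of 0.01, while the methods state default settings, and the lists end near 300000 summits. The authors deposited fold enrichment as a ratio of the summit to its local background, and −log10 p and −log10 q values. No per-sample columns were left unused (0).

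Windows of 250 bp to either side were centred on the best ranked summits, keeping those with a q under 0.01 in at least 2 libraries (179255), and took the highest fold enrichment in each library. Libraries without a summit took the lowest value of their list. Log2 values were quantile-normalized and compared (DKO minus WT) by limma 3.58.1 in R 4.3.3 (lmFit, eBayes with trend, two-sided, Benjamini-Hochberg over all windows, threshold 0.05), after a test on simulated data. Summit pileups were solved from fold enrichment and p under the Poisson model of MACS2. They came out whole for 100% of summits (tolerance 0.01 in −log10 p plus a small fixed fraction of it). Annotation was GENCODE M21 (basic set), and tables were made in Python 3.11.15. Read totals were not analysed here, so depth is unknown beyond the background values.

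The text names, for each gene, the window with the highest mean within 1 kb of a start site, the highest elsewhere, any called window and the 2 with the smallest unadjusted p among those without overlap, and, of the pathway list, called genes or else the 2 highest and 2 lowest changes. Other windows named for Insr and Igf1r, and the pathway gene Tsc1, were chosen after their values were seen. A gene of the pathway list and a window that these rules would name are not reported here. Members, lists and motifs were chosen with earlier results of these data known. Alternatives covered scaling, the value used, filters, window size, distance, the trend, a replicate block and leaving out each library.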

Additional observations from a re-analysis of the deposited data

How the results depend on the processing

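No alternative called a member window lower in DKO, and the fit without a mean-variance trend called 2 higher. The fits with a replicate block or without 1 library called between 0 and 6 windows in either direction over all 179255, so a count of 0 members there says nothing of stability, and the other fits called from 14 to 613 lower and from 12 to 295 higher, with 2088 lower and 2048 higher without a trend. The replicate numbers did not pair the libraries (correlation of same-numbered deviations between -0.0115 and 0.00545), and the fit with a replicate block called 0 windows lower and 0 higher, over all windows as over the members. Without scaling, the median change of the member windows was -0.089, and 20 windows were lower and 8 higher without overlap. Among windows listed in all 6 libraries, 7 were lower (6.67%, against 8.22% of all such windows) and 13 higher (12.4%, against 9.43%). Leaving out 1 library gave a median change from 0.016 to 0.097, 17 to 22 windows lower without overlap and 26 to 36 higher, from 3 to 6 windows listed in WT only and from 2 to 7 listed in DKO only. Within the best 50000 summits of each list, 1 window was listed in WT only and 1 in DKO only (0.562% each, against 0.322% and 0.220% of all windows). Of 509 alternative values of the 35 windows named, 497 had the sign of the value reported, and 113 of these were over 1.5 times larger or smaller. Those that turned were, without scaling, the strongest Insr window (-0.071), the Irs2 start-site window (-0.11), the Gm44956 window near Irs2 (-0.114), the window chr1:72854808-72855308 (-0.163) and the Igfbp3 intron window (-0.006). Without 1 library, the strongest Insr window ran from -0.013 to 0.108, the Irs2 start-site window from -0.069 to 0.168, the Igf1 intron window from -0.284 to 0.03 and chr1:72854808-72855308 from -0.337 to 0.201 (-0.101 without DKO replicate 3). The Gm44956 window was -0.039 with −log10 p and -0.043 with pileups as the value. The cause was not tested. Lists of fixed length limit every comparison of weak sites, and pileups near 10 insertions carry a large counting error.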
